A study of Mus musculus with 14 samples.

Results

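The acyl-CoA thioesterases described here were the 9 genes Acot1, Acot2, Acot3, Acot4, Acot5, Acot7, Acot8, Acot12 and Acot13, measured in livers of young and adult mice of both sexes. Their members were chosen by the RefSeq accession that the array gave each probe, which led to 12 probes of the 39429 probes read and to 9 of the 19751 genes that could be named. Acot3, Acot5 and Acot8 had 2 probes each, and a gene was counted by its probe of highest mean signal. Acot3, Acot4 and Acot5 were lower in male than in female liver at 8 wk, by 11.9-fold, 4.01-fold and 1.95-fold. At 3 wk none of the 9 genes differed between the sexes by the threshold used.

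Acyl-CoA thioesterases split activated fatty acids into the free fatty acid and coenzyme A, the reverse of the step that the acyl-CoA synthetases catalyze, and so help to set how much acyl-CoA and free coenzyme A a cell compartment holds. Acot1 is the cytosolic and Acot2 the mitochondrial enzyme of a group of close relatives, while Acot3, Acot4, Acot5 and Acot8 work in peroxisomes, where very long chain, branched and dicarboxylic acyl-CoAs are shortened. Acot7 is a cytosolic enzyme best known from brain, Acot12 is a cytosolic acetyl-CoA hydrolase of liver, and Acot13 is a small mitochondria-associated thioesterase. Several of these genes are targets of PPARalpha, the nuclear receptor that fatty acids activate in liver during fasting.

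Liver RNA came from untreated CD-1 mice in 6 groups, male (M) or female (F) at 3, 4 or 8 wk, named M3, F3, M4, F4, M8 and F8. Each group had 2 RNA pools, of 5 mice each at 3 wk (10 mice per group) and of 6 mice each at 4 and 8 wk (12 mice per group), so that values of single animals were averaged before measurement. Pools were hybridized in pairs to 14 two-colour arrays, 2 dye-swapped arrays for each of 7 comparisons: M3/F3, M4/F4 and M8/F8 set the sexes side by side at each age, M8/M3 and M8/M4 set adult against younger males, and F8/F3 and F8/F4 did so for females. A log2 ratio is that of the first-named group over the second, so a negative value means lower in males or lower at 8 wk. The comparisons used the same pools repeatedly, and M8/F8, M8/M3 and M8/M4 shared the M8 pools, as M8/F8, F8/F3 and F8/F4 shared the F8 pools.

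A gene was called where its groups differed by more than 1.5-fold, with an adjusted p (limma, Benjamini-Hochberg over all probes and comparisons) below 0.05, and where 1 or both groups had signal well above background on each of their 2 arrays. Errors are standard errors of the fit over all 14 arrays, with n = 2 arrays behind each ratio. Across the series 55.2% to 77.2% of spots other than controls were well above background per channel, and no spot was saturated. Y-linked genes were higher and Xist lower in the channel labelled male on every array that compared the sexes, with Y-linked log2 ratios of 1.35 or more and Xist log2 ratios of -5.10 or less. All 8 hepatocyte markers examined were measured well above background, and their summed signal overlapped between all 6 groups, at 1230180 to 1814979 (arbitrary units, 6 channels) in M8 and 1219057 to 2041909 in F8. Single markers moved within that sum. Alb, albumin, was called lower at 8 wk in males (log2 -0.71 ± 0.10 from 3 wk, adjusted p = 0.00553, and -0.68 ± 0.10 from 4 wk, adjusted p = 0.0068), Serpina1c, an antitrypsin gene, was called higher (0.91 and 0.65), and in females Tat was called higher in F8/F4 (0.65). Their part in the thioesterase ratios was not tested. Since whole liver was measured, fewer cells of a type and less RNA per cell cannot be told apart.

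Acot1 to Acot5 lie next to each other on chromosome 12. In the RefSeq annotation of build GRCm38.p6 the protein-coding genes follow in the order Acot2, Acot1, Acot4, Acot3, Acot5 and Acot6, with no gene but a lncRNA and a pseudogene between them. Acot7 is on chromosome 4, Acot8 on chromosome 2, and Acot12 and Acot13 on chromosome 13. The sequences just upstream of the start of the 3 neighbours that were lower in adult male than adult female liver are shown because these genes differed in the same direction. They are the 250 bases before the first RefSeq start listed for each gene, 5′ to 3′, with matches to AGGTCA, a motif of nuclear receptors, or to its reverse complement in capitals.
Acot4, upstream stretch at chr12:84038129-84038378, + strand: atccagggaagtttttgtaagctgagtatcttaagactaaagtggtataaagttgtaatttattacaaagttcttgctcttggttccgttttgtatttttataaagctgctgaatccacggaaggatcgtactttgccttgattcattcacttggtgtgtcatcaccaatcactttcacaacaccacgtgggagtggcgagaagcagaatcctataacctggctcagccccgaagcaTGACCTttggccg
Acot3, upstream stretch at chr12:84051894-84052143, + strand: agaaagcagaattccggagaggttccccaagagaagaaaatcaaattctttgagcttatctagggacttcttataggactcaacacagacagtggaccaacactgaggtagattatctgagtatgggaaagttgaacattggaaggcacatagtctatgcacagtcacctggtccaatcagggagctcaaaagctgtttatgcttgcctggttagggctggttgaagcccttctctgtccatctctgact
Acot5, upstream stretch at chr12:84069074-84069323, + strand: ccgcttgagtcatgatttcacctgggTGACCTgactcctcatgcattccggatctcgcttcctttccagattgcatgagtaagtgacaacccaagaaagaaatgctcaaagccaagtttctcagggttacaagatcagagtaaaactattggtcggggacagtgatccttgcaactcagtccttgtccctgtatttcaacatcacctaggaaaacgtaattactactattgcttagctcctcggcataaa

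Both strands of these stretches were searched for 4 sets of letters. AGGTCA was found once in Acot4, beginning 13 bases before the start, and once in Acot5, beginning 224 bases before it, and not in Acot3. Among the 8 members with a promoter in the table (Acot13 has no entry), 3 held it, the third being Acot12, while 14% of 32851 mouse promoters of the same length did. A direct repeat of AGGTCA with 1 base of any kind between the copies and the STAT5 core TTCNNNGAA were in none of the 8, against 0.0335% and 7.02% of all promoters. TATAAA was in 1 of the 8, Acot4, with 3 matches over both strands, 1 of them a reverse complement that overlaps a forward match. It was in 12.4% of all promoters. The stretches show letters only, and factor binding was not measured.

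The probes show which letters were hybridized, and how far each is specific among the chromosome 12 relatives was not tested. The Acot5 probe, 60 bases, had 2 reading frames with no stop codon. For the Acot3 and Acot4 probes, also of 60 bases, the first 30 bases are given.
Acot3 probe, first 30 bases: gtgtacacacacacatatacacacaagcac
Acot4 probe, first 30 bases: tgctggatgacatgaaattcatgtttaggg
Acot5 probe: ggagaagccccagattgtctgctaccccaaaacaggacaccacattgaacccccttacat

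The number of thioesterase genes called differed between the comparisons. In M8/F8, 3 of 9 genes were called lower in males (Acot3, Acot4 and Acot5) and 0 higher, where 3.75% of the 13526 genes tested were called lower and 6.42% either way. In M8/M3, 4 of 9 were called lower at 8 wk (Acot1, Acot3, Acot4 and Acot5), against 10% of 14448 genes called lower and 17.9% called either way. The same 4 genes were called lower in M8/M4, against 6.39% of 14940 genes called lower and 10.8% called either way. In females 1 of 9 genes (11.1%), Acot3, was called in F8/F3, where it was higher, against 5.08% of genes tested called higher and 11.7% called either way. It was the single call in F8/F4 as well, against 2.29% called higher and 6.02% either way. Acot3 was also the only gene of the 9 called in M4/F4, where it was lower in males, against 0.971% of genes tested called lower and 1.59% either way. In M3/F3 no member was called by limma, 1 of 9 had an unadjusted p below 0.05 and 0 were called by the error-weighted average of the study's kind, and 0.517% of genes tested were called in either direction. The median of the 9 log2 ratios was -0.30 in M8/F8. It was -0.74 from 3 to 8 wk and -0.87 from 4 to 8 wk in males, and 0.17 and 0.11 over the same spans in females, while the median of all genes tested lay between 0.00 and 0.02 in these comparisons.

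**Figure D1:**
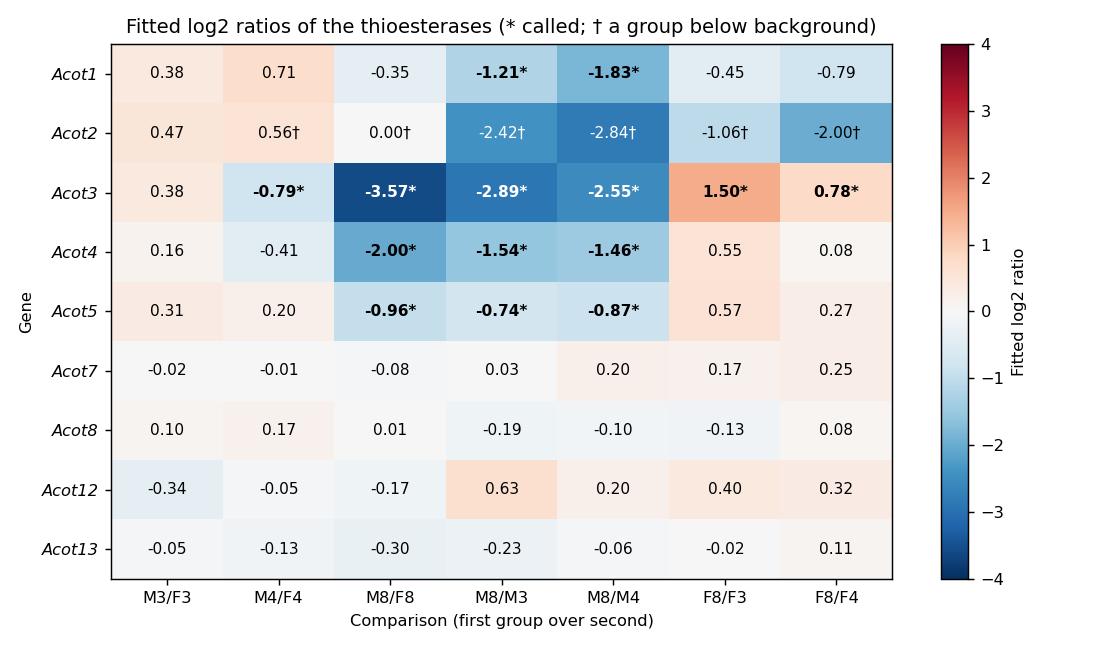
Fitted log2 expression ratios of the 9 thioesterase genes (rows) in the 7 comparisons (columns), n = 2 arrays each, with colour running from blue (lower in the first group) to red (higher). Asterisks mark calls and daggers mark ratios in which a group was not well above background on any array, and the calls lie in the rows of Acot1, Acot3, Acot4 and Acot5, from -3.57 to 1.498.

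Acot3, a peroxisomal thioesterase of long chain acyl-CoAs, showed the largest log2 ratio of the 9 genes in M8/F8, M8/M3 and F8/F3. Its 2 arrays gave log2 ratios of 0.53 and 0.24 in M3/F3, -1.05 and -0.53 in M4/F4, and -3.38 and -3.77 in M8/F8. Males and females were thus ordered the same way on both arrays at each age, with males higher at 3 wk and lower at 4 and 8 wk. The 3 wk difference was not called, and a turn between 3 and 4 wk was not tested. The fitted log2 ratio was 0.38 ± 0.20 (SE, adjusted p = 0.287) at 3 wk, -0.79 ± 0.20 (adjusted p = 0.0421) at 4 wk and -3.57 ± 0.20 (adjusted p = 0.000189) at 8 wk. From 3 to 8 wk the male arrays gave -2.89 and -2.88, and from 4 to 8 wk -2.20 and -2.90. These were decreases of 7.40-fold (log2 -2.89 ± 0.20, adjusted p = 0.00036) and 5.85-fold (log2 -2.55 ± 0.20, adjusted p = 0.000538). Female liver moved in the opposite direction, with log2 ratios of 1.73 and 1.27 in F8/F3 and of 0.94 and 0.62 in F8/F4. Acot3 was up regulated 2.82-fold from 3 to 8 wk in females (log2 1.498 ± 0.20, adjusted p = 0.00376) and 1.71-fold from 4 to 8 wk (log2 0.78 ± 0.20, adjusted p = 0.0441). The second Acot3 probe was called in the same 6 comparisons, with log2 ratios of -3.88 in M8/F8, -3.15 in M8/M3 and 1.65 in F8/F3. For the brighter probe the calls in M4/F4 and F8/F4 were lost when the pools shared by arrays entered the covariance (adjusted p = 0.131 and 0.137), when slide was a block (0.0503 and 0.0521), and each when any of 8 single arrays was left out. Without the first or second array of the comparison itself, the M4/F4 value was -0.59 (adjusted p = 0.301) or -0.98 (0.0986), and the F8/F4 value 0.70 (0.249) or 0.86 (0.164). For the second probe the F8/F4 call was lost with shared pools (adjusted p = 0.0628) and without the first (0.144) or second (0.118) F8/F4 array. Its M4/F4 call was lost with shared pools (adjusted p = 0.101), with slide as a block (0.0633), with normexp and loess (0.0691), and without any of 10 single arrays, with adjusted p from 0.0505 to 0.284.

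Acot4, whose enzyme hydrolyzes succinyl-CoA and other dicarboxylyl-CoAs in peroxisomes, followed with smaller ratios. The arrays gave 0.19 and 0.12 in M3/F3, -0.72 and -0.11 in M4/F4, and -2.07 and -1.94 in M8/F8. The sexes were close at 3 wk and apart on both arrays at 8 wk, when the log2 ratio was -2.005 ± 0.12 (adjusted p = 0.000256). At 4 wk it was -0.41 ± 0.12 (adjusted p = 0.0752) and was not called. In males the arrays gave -1.56 and -1.53 in M8/M3 and -1.28 and -1.64 in M8/M4. Acot4 was thus down regulated 2.91-fold from 3 to 8 wk (log2 -1.54 ± 0.12, adjusted p = 0.000593) and 2.75-fold from 4 to 8 wk (log2 -1.46 ± 0.12, adjusted p = 0.000721). In females F8/F3 was 0.65 and 0.45, a ratio of 1.47 with adjusted p = 0.0273 that stayed under the fold threshold. F8/F4 was 0.02 and 0.13 (adjusted p = 0.873).

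Acot5, a peroxisomal thioesterase of medium and long chain acyl-CoAs, had the smallest ratios of these 3 genes in M8/F8, M8/M3 and M8/M4. Its arrays gave 0.43 and 0.20 in M3/F3, 0.12 and 0.28 in M4/F4, and -0.68 and -1.24 in M8/F8, so that males were the higher sex on all 4 arrays of young liver and the lower sex on both arrays at 8 wk. The fitted values were 0.31 ± 0.11 (adjusted p = 0.132) at 3 wk, 0.20 ± 0.11 (adjusted p = 0.343) at 4 wk and -0.96 ± 0.11 (adjusted p = 0.00252) at 8 wk. In males the gene was down regulated 1.67-fold from 3 wk (arrays -0.77 and -0.71, adjusted p = 0.00685) and 1.83-fold from 4 wk (arrays -0.82 and -0.93, adjusted p = 0.00364). In females F8/F3 was 0.55 and 0.59 (adjusted p = 0.019), a ratio of 1.48 just under the fold threshold, and F8/F4 was 0.26 and 0.29 (adjusted p = 0.183). The M8/M3 call was lost with the shared pools in the covariance (adjusted p = 0.0667), with normexp and loess (log2 -0.34), and without the first (-0.76, adjusted p = 0.0552) or second (-0.72, adjusted p = 0.0613) M8/M3 array. The second Acot5 probe was well above background in 15 of 28 channels, was called nowhere, and gave a ratio of the opposite sign in M8/F8 (0.38) and M8/M4 (0.25), so the Acot5 values rest on 1 probe.

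Whether the change with age differed between the sexes was tested by the difference of the male and female log2 ratios. From 3 to 8 wk, 3 of 9 genes were called (Acot3, Acot4 and Acot5, all lower in males), against 1.74% of genes tested called lower and 3.38% either way. The same 3 were called from 4 to 8 wk, against 0.58% called lower and 1.33% either way. The difference from 3 to 8 wk was -4.38 ± 0.28 for Acot3 (adjusted p = 0.00167), -2.09 ± 0.17 for Acot4 (adjusted p = 0.0028) and -1.31 ± 0.16 for Acot5 (adjusted p = 0.00991). From 4 to 8 wk it was -3.33 ± 0.28 for Acot3 (adjusted p = 0.0078), -1.54 ± 0.17 for Acot4 (adjusted p = 0.0139) and -1.15 ± 0.16 for Acot5 (adjusted p = 0.0277). With the pools shared by arrays in the covariance the Acot5 differences had adjusted p = 0.0823 and 0.213. The 3 to 8 wk Acot5 difference was also lost without any 1 of the 4 arrays of M8/M3 and F8/F3 (adjusted p = 0.0594, 0.0587, 0.0633 and 0.0513), and the 4 to 8 wk one without any of 10 single arrays, at most 0.128 without the second M8/M4 array. The 4 to 8 wk Acot4 difference was lost with slide as a block (adjusted p = 0.0551, and 0.0743 for Acot5) and without the second M8/M4 (-1.42, adjusted p = 0.0691) or second F8/F4 array (-1.38, adjusted p = 0.067).

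**Figure D2:**
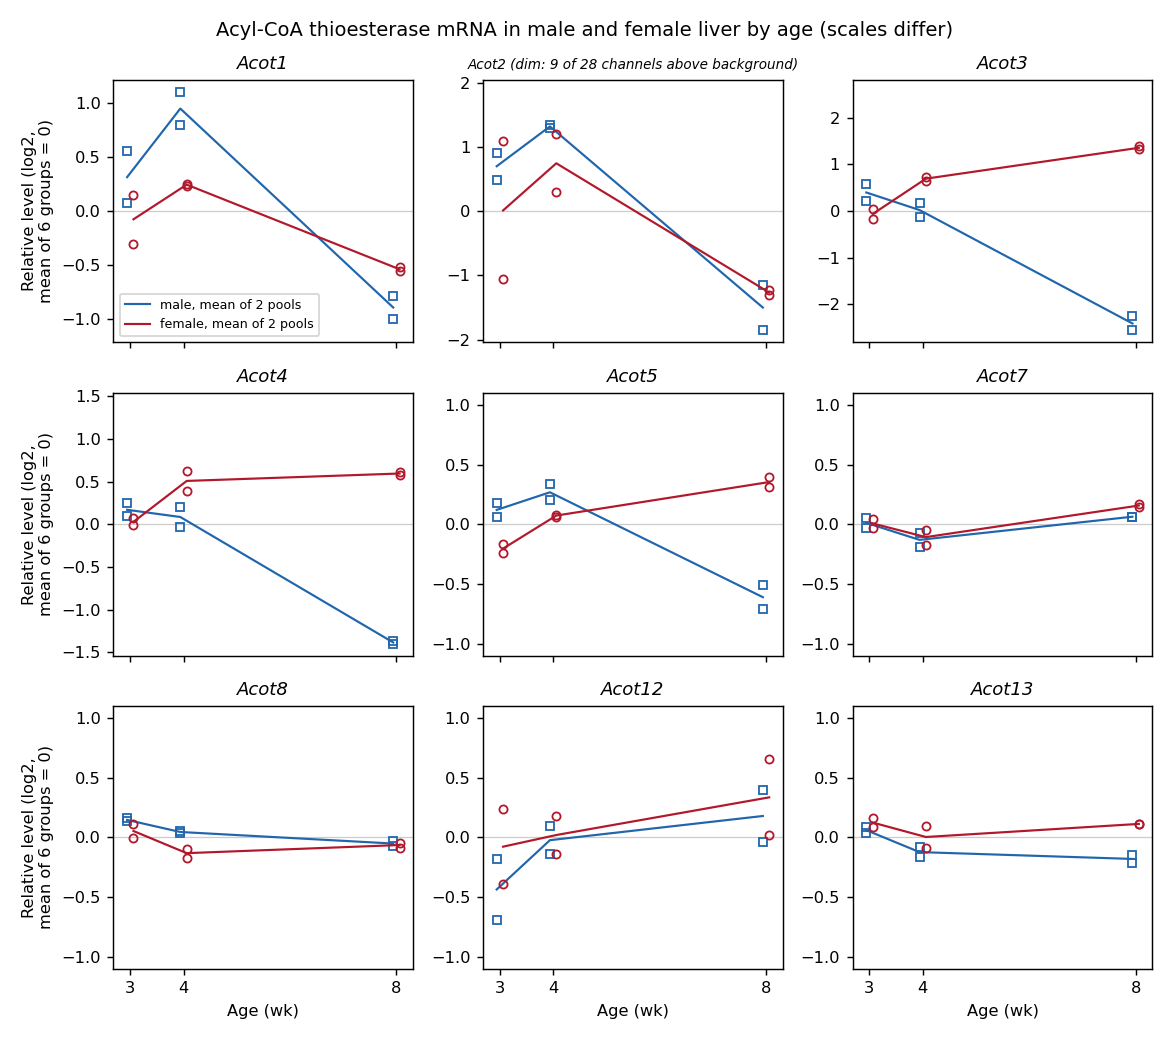
Relative mRNA level (log2, mean of the 6 groups set to 0) of each thioesterase against age (wk), with 1 open symbol per RNA pool (2 per group, squares male, circles female) and lines through the means. For Acot3 and Acot4 the M8 pools lie below all other pools and the F8 mean lies 3.77 and 1.98 above the M8 mean on the log2 scale, while the group means of Acot7, Acot8 and Acot13 span 0.28 to 0.30.

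The order of the groups follows from a relative level for each pool, solved from the ratios of the 7 arrays of 1 replicate number, with the mean of the 6 groups at 0. For Acot3 the 2 pools were at 1.33 and 1.39 in F8, 0.65 and 0.74 in F4, 0.59 and 0.21 in M3, -0.14 and 0.18 in M4, -0.17 and 0.04 in F3, and -2.26 and -2.56 in M8. Only M4 and F3 overlapped among the neighbours in this order. For Acot4 the same order held, with F8 (0.57 and 0.62) overlapping F4 (0.62 and 0.40), with M3, M4 and F3 overlapping between -0.03 and 0.25, and with M8 apart at -1.40 and -1.37. The Acot5 levels were 0.31 and 0.39 in F8, 0.20 and 0.34 in M4, 0.18 and 0.06 in M3, 0.06 and 0.08 in F4, -0.24 and -0.17 in F3, and -0.51 and -0.71 in M8. In this order F8 overlapped M4 and M3 overlapped F4, and the M8 pools again stood apart. The 3 genes thus shared their highest group, F8, and their lowest, M8, and these levels describe the ratios above without a further test.

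Acot1, the cytosolic enzyme that is strongly induced by PPARalpha ligands and fasting, fell in adult males and was not called between the sexes at 8 wk. Its arrays gave -1.25 and -1.17 in M8/M3, a decrease of 2.32-fold (log2 -1.21 ± 0.24, adjusted p = 0.0187), and -1.51 and -2.16 in M8/M4, a decrease of 3.57-fold (log2 -1.83 ± 0.24, adjusted p = 0.00383). In females F8/F3 was -0.15 and -0.76 and F8/F4 was -0.68 and -0.89, lower at 8 wk on all 4 arrays and not called (adjusted p = 0.309 and 0.0843). The error-weighted average called F8/F4 (-0.78) and M4/F4 (0.69). By limma the difference between the sexes was -0.76 ± 0.35 from 3 to 8 wk (adjusted p = 0.315). From 4 to 8 wk it was -1.05 ± 0.35 (adjusted p = 0.251). Neither was called by limma, while the error-weighted average called the latter (-1.005). M8/F8 was -0.33 and -0.37 (adjusted p = 0.462), M4/F4 was 0.45 and 0.97 (adjusted p = 0.116) and M3/F3 was 0.79 and -0.03 (adjusted p = 0.41). The pools stood highest in M4 (0.79 and 1.104), followed by M3 (0.56 and 0.07), F4 (0.25 and 0.24), F3 (-0.30 and 0.15), F8 (-0.52 and -0.56) and M8 (-0.78 and -1.002), and among neighbours only M3 and F4 overlapped. The M8/M3 call was lost without the first (log2 -1.08, adjusted p = 0.152) or second (log2 -1.35, adjusted p = 0.0855) array of that comparison.

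Acot2, the mitochondrial relative of Acot1, was measured near background, with 9 of 28 channels well above it and none of the M8 or F8 channels. In M8/F8 both arrays list a log2 ratio of 0, with neither group well above background. The fitted M8/M3 log2 ratio was -2.42 ± 0.75 (adjusted p = 0.086) and that of M8/M4 was -2.84 ± 0.75 (adjusted p = 0.0512). F8/F4 gave -1.996 ± 0.75 (adjusted p = 0.144), and no comparison was called by limma. The error-weighted average called all 3, at -2.40 in M8/M3, -3.03 in M8/M4 and -1.58 in F8/F4. Bounds were read from normexp-corrected (offset 50) and between-array scaled log2 signals. The dim group was taken on each array at the higher of its own signal and the lowest signal well above background. In M8/M3 its own signal was the higher on both arrays. By means of 2 arrays Acot2 was at least 1.14-fold lower in M8 than in M3 and at least 1.39-fold lower than in M4. In F8 it was at least 1.18-fold lower than in F4. These folds carry the offset and have no error, and limma called none of the 3 differences. In F8/F3, 1 of 2 F3 channels was well above background (adjusted p = 0.472), and no bound is given. Acot1 and Acot2 are close copies, and how far their probes cross-hybridize was not tested.

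The other 4 genes were called in none of the 7 comparisons, nor in the contrasts of sex by age. Acot7 had ratios between -0.14 and 0.37 over all 14 arrays and a standard error of 0.07, and its largest fitted value was 0.25 in F8/F4 (adjusted p = 0.0574). Acot8, the peroxisomal thioesterase with the broadest range of substrates, had fitted values between -0.19 in M8/M3 (adjusted p = 0.062) and 0.17 in M4/F4 (adjusted p = 0.0853). Its second probe gave -0.21 (adjusted p = 0.00646) and 0.14 (adjusted p = 0.0275), under the fold threshold. Acot13 was -0.39 and -0.22 in M8/F8, a fitted log2 ratio of -0.30 ± 0.07 (adjusted p = 0.0385) and a ratio of 0.812, inside the fold threshold. Acot12 had a bright probe whose 2 arrays disagreed in sign in 6 of 7 comparisons, as in F8/F3 (1.01 and -0.22), and its standard error of 0.49 left differences of the size seen for Acot5 undetectable. All neighbouring groups overlapped in the order of Acot12 levels, and Acot7, Acot8 and Acot13 spanned 0.29, 0.28 and 0.30 between their highest and lowest group.

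Between 3 and 4 wk the groups were never hybridized together, and their ratio was read through the shared 8 wk pools. No member was called by limma in M4/M3 (0 with an unadjusted p below 0.05) or F4/F3 (3 with an unadjusted p below 0.05), where 0.292% and 0.0931% of genes tested were called in either direction, and the error-weighted average called 0 in both. Acot3 had log2 ratios of -0.34 ± 0.28 in M4/M3 (adjusted p = 0.724) and 0.72 ± 0.28 in F4/F3 (adjusted p = 0.444). Acot4 had 0.48 ± 0.17 in F4/F3 (adjusted p = 0.41), and Acot1 had 0.62 ± 0.35 in M4/M3 (adjusted p = 0.53).

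Other genes of acyl-CoA metabolism were counted in 6 lists for the same comparisons. Of 13 other thioesterases and acyltransferases of the family, 1 was called higher and 2 lower in M8/F8, 2 higher and 2 lower in M8/M3, and 0 in F8/F3. Acnat1 and Acnat2, peroxisomal acyltransferases related to Baat, had M8/F8 log2 ratios of -1.29 ± 0.23 (adjusted p = 0.0122) and -2.17 ± 0.31 (adjusted p = 0.00536). Them5, a mitochondrial thioesterase, went the other way, with 1.92 ± 0.38 in M8/F8 (adjusted p = 0.018) and 2.69 ± 0.38 in M8/M3 (adjusted p = 0.00502). Acot6, the last thioesterase of the chromosome 12 row, was called lower in M8/M4 (-0.73 ± 0.10, adjusted p = 0.00404) and had -0.26 in M8/F8 (adjusted p = 0.141). Baat, which joins bile acids to amino acids, was called higher in M8/M3 (0.61 ± 0.08, adjusted p = 0.00461).

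Peroxisomal fatty acid oxidation, with 21 genes, had 1 called higher and 2 lower in M8/F8, 4 higher and 3 lower in M8/M3, 1 higher and 5 lower in M8/M4, and no call in either female comparison. The 2 lower ones in M8/F8 were Abcd2, a transporter that brings very long chain acyl-CoA into peroxisomes (-3.73 ± 0.35, adjusted p = 0.00105), and Hacl1, a lyase of alpha oxidation (-0.95 ± 0.07, adjusted p = 0.000576). Phyh, which starts alpha oxidation of phytanic acid, was higher in M8/M3 (0.86 ± 0.10, adjusted p = 0.00271). Ehhadh, the bifunctional enzyme of peroxisomal beta oxidation, was called lower there (-0.61 ± 0.10, adjusted p = 0.00961). In M4/F4, Acaa1b was the single call, higher in males. The 17 genes of mitochondrial fatty acid oxidation had 0 calls in all 7 comparisons, with median log2 ratios between -0.12 and 0.13. Among them Cpt1a, the carnitine transferase that admits fatty acids to mitochondria, had 0.56 in F8/F3 (adjusted p = 0.00146), Decr1, a reductase for unsaturated acids, had -0.42 in M8/M4 (adjusted p = 0.0144), and Hadh, a beta oxidation dehydrogenase, had -0.42 in M8/F8 (adjusted p = 0.00607), all under the fold threshold.

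Of 14 PPARalpha targets outside oxidation, 3 were called lower in M8/F8 and 4 in each male age comparison, with 0 called higher, while F8/F3 had 1 called higher and 1 lower. Cidec, a lipid droplet protein, had positive log2 ratios on both arrays of M8/F8 (fitted 1.84 ± 0.63, adjusted p = 0.112), M8/M3 (2.10, adjusted p = 0.0747) and M8/M4 (2.08, adjusted p = 0.0764) and was not called. In M4/F4 2 were called higher in males, Fgf21 (1.59) and Fabp1, a fatty acid binding protein (0.89), and the 14 log2 ratios ran from 0.02 to 1.59 with a median of 0.40. Ppara itself was called in no comparison and had 0.58 in F8/F3 (adjusted p = 0.0273). Cyp4a14 and Cyp4a10, fatty acid omega-hydroxylases, had M8/M3 log2 ratios of -3.11 ± 0.33 (adjusted p = 0.00166) and -2.38 ± 0.20 (adjusted p = 0.000681). Fgf21, a fasting hormone, was lower in both sexes at 8 wk than at 3 wk, with -1.58 ± 0.30 in M8/M3 (adjusted p = 0.0156) and -1.34 ± 0.30 in F8/F3 (adjusted p = 0.0289). The median of these 14 genes was -0.04 for males and 0.20 for females from 3 to 8 wk, against -0.74 and 0.17 for the thioesterases.

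Acyl-CoA synthetases, the enzymes of the opposite reaction, numbered 20, with 2 called higher and 5 lower in M8/M3, 1 each way in M8/F8, and 2 higher in F8/F3. Acss3, a mitochondrial synthetase of short chains, was lower in M8/F8 (-1.49 ± 0.12, adjusted p = 0.000671) and in M8/M3 (-0.97 ± 0.12, adjusted p = 0.00318), and higher in F8/F3 (0.70 ± 0.12, adjusted p = 0.0109). Aacs, acetoacetyl-CoA synthetase, was higher in F8/F4 (1.15 ± 0.12, adjusted p = 0.0017) and in M4/F4 (0.92 ± 0.12, adjusted p = 0.00407), and lower in M8/M3 (-1.11 ± 0.12, adjusted p = 0.00196). Acsl3, a long chain synthetase, was lower at 8 wk in males (-0.68 ± 0.10 from 3 wk, adjusted p = 0.00624, and -0.92 ± 0.10 from 4 wk, adjusted p = 0.00195). Of 10 measured genes of coenzyme A synthesis and breakdown, Nudt7, a peroxisomal hydrolase of acyl-CoA, was the only one called in M8/F8, where it was higher in males (0.93 ± 0.18, adjusted p = 0.0178). Slc25a42, a mitochondrial coenzyme A carrier, was called higher in M8/M3 (0.64 ± 0.07, adjusted p = 0.00211), and Pank1, a pantothenate kinase, in F8/F3 (0.60 ± 0.11, adjusted p = 0.0129).

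**Figure D3:**
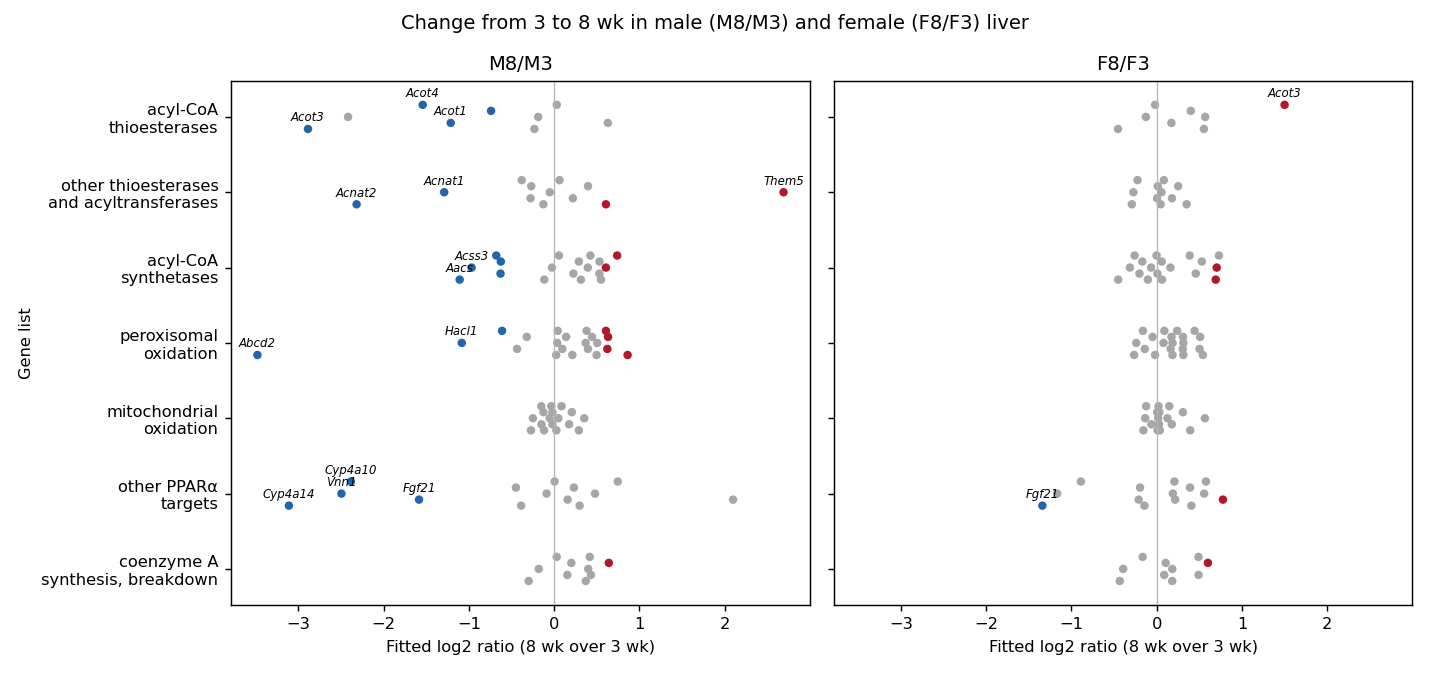
Fitted log2 ratios of 8 wk over 3 wk in male (left) and female (right) liver for the thioesterases and 6 related gene lists, with 1 point per gene well above background (n = 2 arrays), blue for called lower, red for called higher and grey for not called. The height of a point within a row has no meaning. The 4 thioesterases called in males lie between -2.89 and -0.74, and the mitochondrial oxidation genes lie between -0.27 and 0.35 in males and between -0.16 and 0.56 in females.

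Markers of other cells moved in some of the same comparisons. Of 5 measured macrophage markers, 3 (Adgre1, Clec4f and Marco) were called lower in M8/F8, where the median of the 5 log2 ratios was -0.59, and 2 were called lower in M8/M3 and in M8/M4. Marco was also called lower in M4/F4 (-0.69) and at 8 wk in females, with -1.58 in F8/F3 and -1.28 in F8/F4. Their summed signal was 29581 to 39618 in M8 and 46606 to 53060 in F8 (arbitrary units, 6 channels each), and 50007 to 52716 in M3 and 56837 to 61825 in F3 (4 channels each). None of the 5 was below background throughout a group. Of 6 lymphocyte markers, Cd3g was called lower in M8/F8 (-0.86) and in both male age comparisons, and Cd8a in M8/M3, with sums of 1146 to 1441 in M8 and 1305 to 1536 in F8. Of 5 bile duct markers, Krt19 and Krt7 were called lower in M8/M3, Krt19 in M8/M4, Sox9 in both female age comparisons, and Spp1 higher in M4/F4. The bile duct sums were higher in males and did not overlap at 8 wk (10640 to 13152 in M8 and 6398 to 8043 in F8). Of 5 endothelial markers, Lyve1 was called lower in M8/M3, M8/M4 and F8/F3, with sums of 46766 to 53541 in M8 and 52234 to 59559 in F8. Of 6 measured erythroid markers, 4 were called lower at 8 wk in both sexes, while Alas2, the heme synthesis enzyme of red cells, was called higher in males at 8 wk (log2 1.37 ± 0.16 in M8/M3, adjusted p = 0.00229) and higher in males than females at 4 wk (0.78) and 8 wk (1.89). The list had sums of 122050 to 164332 in M3, 72758 to 98605 in M8, 123155 to 159099 in F3 and 66102 to 92817 in F8, and Epb42 was not above background in any M8 or F8 channel. All 6 mitosis genes were called lower at 8 wk in both sexes, with sums of 14624 to 19755 in M3, 1405 to 2470 in M8, 11669 to 16853 in F3 and 1660 to 2056 in F8, and Top2a was called lower in M8/F8 as well (-1.12). The mesenchymal markers Col1a1 and Col3a1, 2 of 5 measured, were also called lower in both sexes, with list sums of 140875 to 171625 in M3, 67483 to 85556 in M8, 138368 to 164099 in F3 and 82375 to 97507 in F8. Of 5 adipocyte markers, 0 were called in the 7 comparisons, and 0 or 1 could be tested in each. Their sums were 429 to 727 in M8 and 423 to 462 in F8. The part of all these cells in the thioesterase ratios was not tested.

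For each gene with calls, the 3 genes with the nearest pattern were taken by the distance between the 7 fitted log2 ratios, among 15302 genes. Nearest to Acot3 were Cyp2b13 (distance 1.52), Abcd2 (1.58) and Cga (1.63), and Cyp2b13 had -2.73 in M8/F8 and 2.298 in F8/F3. Nearest to Acot4 were Rcan2 (0.49), Stambpl1 (0.54) and Fgl1 (0.58), and Rcan2 had -1.70 in M8/F8 and -1.49 in M8/M3. Nearest to Acot5 were Rab30 (0.20), Nat8f3 (0.34) and Id1 (0.46), and Rab30 had -1.001 in M8/F8 and 0.52 in F8/F3. Nearest to Acot1 were Ctse (0.71), Arhgap19 (0.80) and Cand2 (0.81), and Ctse had -0.52 in M8/F8 and -1.76 in M8/M4. No other thioesterase was among the 3 nearest of any of these 4 genes.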

How the data were processed

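Mouse liver RNA was hybridized to 14 two-colour 4x44K arrays, on 4 slides scanned on 2 days. The authors scanned them with Agilent Feature Extraction 10.7.1.1, which subtracted background and applied linear and LOWESS dye normalization within each array. The deposited log10 ratios of red over green and their modelled errors, and the deposited intensity of each channel, were used. The series table, also log10 ratios, held the same values (largest difference 0), with medians of 0. Ratios were turned to male over female or older over younger by the dyes in the labels (the methods state the opposite dyes for the first replicate, and the sex-linked genes followed the labels), changed to log2 and averaged over spots of a probe. Non-uniform spots (0 to 10 per array) were left out. Probes were named by accession through the RefSeq table of GRCm38.p6, which named 26055 of 39429 probes and left 13374 unnamed.

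limma 3.58.1 in R 4.3.3 fitted 7 comparisons and a dye term to the 14 arrays (6 residual degrees of freedom), with Benjamini-Hochberg adjustment over all probes and comparisons, and within each contrast of sex by age or 4 over 3 wk. Called genes differed by more than 1.5-fold with adjusted p below 0.05, and in 1 or both groups their signal was well above background in each replicate. The fit was tested on simulated data. The study's Rosetta error model was not used here. In its place an average weighted by the deposited errors, with p below 0.0001, was an alternative. Other alternatives were normexp (offset 50) on median spot and background signals with loess, slide or replicate as a block, shared pools in the covariance, no fold or background threshold, population outliers removed, any probe of a gene, and each array left out. The normexp alternative was planned on mean signals, but median signals were used.

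Replicate numbers marked pools used together. Differences between replicate arrays were followed round closed loops of 4 comparisons, such as M8/M3, F8/F3, M8/F8 and M3/F3 at 3 wk. M8/M3 less F8/F3 deviated together with M8/F8 less M3/F3 with r = 0.882 over 21683 probes, and the 4 wk loop had r = 0.878. The 10 pairs of comparisons that shared a pool had r from 0.141 to 0.818, against -0.452 to 0.241 for 11 pairs that shared none. The ratio of pool to array variance was 4.17. The number of arrays, 2 per comparison, limits the precision, and pools hide the spread between animals. In each list, the 3 genes called in most comparisons (ties by the largest log2 ratio) were named, with Baat, Acnat1, Acnat2, Ppara and Ehhadh, while Acot6, Acaa1b, Fabp1, Cidec and the markers were chosen after their values were seen. Members and lists were chosen with earlier results of these data known. The values of 2 genes of the lists are not reported here.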

Additional observations from a re-analysis of the deposited data

Results flagged for a closer look

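The change with age was called as different between male and female liver for 3 genes. The male minus female difference of log2 ratios was -4.38 for Acot3, -2.09 for Acot4 and -1.31 for Acot5 from 3 to 8 wk, and -3.33, -1.54 and -1.15 from 4 to 8 wk, by the limma contrast of the differences. With shared pools in the covariance both Acot5 differences lost their call (adjusted p = 0.0823 and 0.213), and with slide as a block so did the 4 to 8 wk differences of Acot4 (adjusted p = 0.0551) and Acot5 (adjusted p = 0.0743).

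Acot8 moved in opposite directions from 4 to 8 wk on every array of its brighter probe, with M8/M4 log2 ratios of -0.10 and -0.11 and F8/F4 log2 ratios of 0.11 and 0.04. The difference of -0.18 had an unadjusted p of 0.0468 and an adjusted p of 0.365 by limma, and was not called. The second Acot8 probe had M8/M4 arrays of opposite sign, at -0.17 and 0.07, and F8/F4 log2 ratios of 0.04 and 0.29 (adjusted p = 0.0157). Its difference of -0.21 had an unadjusted p of 0.00214 and an adjusted p of 0.0858, and was not called.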

How the results depend on the processing

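Of 14 calls of the 9 genes in the 7 comparisons, 11 held under each of 8 processing alternatives, and 10 also held with each of the 14 arrays left out. The 4 that did not were Acot3 in M4/F4 and F8/F4, Acot5 in M8/M3 and Acot1 in M8/M3. Among 1056 probe values under the 8 alternatives, 14 calls were lost, 15 were gained and 0 reversed, and 11 uncalled values changed sign. With slide as a block the counts called were 0 in M4/F4, 0 in F8/F4 and 1 (Acot3) for sex by age from 4 to 8 wk, in place of 1, 1 and 3. With shared pools in the covariance M4/F4 and F8/F4 fell to 0, and without Acot5 M8/M3 fell to 3 and sex by age to 2 over both spans. With normexp and loess M8/M3 fell to 3, also without Acot5. The error-weighted average called 2 in M4/F4 (with Acot1), 3 in F8/F4 (with Acot1 and Acot2), 5 in M8/M3 and 5 in M8/M4 (with Acot2 in both), and 4 for sex by age from 4 to 8 wk (with Acot1). With no fold threshold F8/F3 had 3 (with Acot4 and Acot5) and M8/F8 had 4 (with Acot13). Counting any probe of a gene moved no count. The cause of these shifts was not tested, except that the counts with no fold threshold follow from its removal. The replicate block was a single offset between first and second replicate arrays, common to all comparisons, and did not model the shared pools. With it the counts stayed at 0, 1 and 3 between the sexes at 3, 4 and 8 wk. They stayed at 4 and 4 in males and 1 and 1 in females with age, and no call changed. With 1 array left out the counts ranged from 0 to 1 in M3/F3, 0 to 2 in M4/F4, 3 to 3 in M8/F8, 2 to 5 in M8/M3, 4 to 5 in M8/M4, 1 to 1 in F8/F3, 0 to 2 in F8/F4, 2 to 3 for sex by age from 3 to 8 wk, 1 to 3 from 4 to 8 wk, and 0 to 0 in M4/M3 and F4/F3. A comparison left with 1 array took its spread from the others. Low signal limits Acot2 and the second Acot5 probe, and the disagreement between arrays limits Acot12.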
